A study of Mus musculus with 4 samples.

Results

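The genes described here code for 7 cell surface receptors that sense metabolites: Hcar1 and Hcar2, the hydroxycarboxylic acid receptors, Gpr84, Ffar4, Sucnr1, P2ry2 and Adora2b. They are 7 of 20923 protein-coding genes with a curated RefSeq transcript in the mm10 mouse genome. Hcar2 was chosen by a measured value, the fold enrichment of a region near it that was among the highest of all SMAD4 regions, and the others were added by function with the peak lists already known. The folds, ranks and counts around these genes are therefore given as a description, with no test. A peak was assigned to a gene when its summit, the base of highest signal, lay in the gene body or within 50 kb of a curated transcription start site (TSS) of the gene.

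The study profiled the genomic binding of SMAD4 in mouse alveolar macrophages (AMs) by HT-ChIPmentation, a form of ChIP-seq in which the sequencing adapters are inserted by a transposase while the chromatin is still bound to the antibody beads. AMs were obtained by bronchoalveolar lavage and cell sorting from wild-type C57BL/6J mice that were 9 weeks old. The series holds 2 SMAD4 libraries and 2 input libraries, each SMAD4 library has its own peak list, and no second condition, genotype or time point exists to compare it with. Replicate numbers follow the accession order and do not pair samples, and the labels do not say whether the 2 libraries came from separate mice, so the spread between them may be technical.

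SMAD4 is the common partner that carries receptor-activated SMAD proteins of the TGFβ family into chromatin, where they bind beside lineage factors such as PU.1 and the C/EBP family. TGFβ made by AMs themselves is one of the niche signals that maintain these cells. Metabolite receptors are G protein-coupled receptors through which a macrophage reads small molecules outside the cell. Hcar2 responds to β-hydroxybutyrate and nicotinic acid, and Hcar1 to lactate, both through inhibitory G proteins that lower cyclic AMP. Gpr84 senses medium-chain fatty acids, Ffar4 (also called GPR120) long-chain fatty acids, and Sucnr1 the Krebs cycle intermediate succinate. P2ry2 is a receptor for extracellular ATP and UTP, and Adora2b a receptor for adenosine that raises cyclic AMP. Peaks mark where SMAD4 was enriched on DNA, and no expression was measured in these libraries.

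The replicate 1 list held 16369 peaks and the replicate 2 list 19015, and merging peaks that overlapped by at least 1 bp between the lists gave 10964 shared regions. The number of fragments at each summit was recovered from the deposited fold enrichment and p-value, with a median of 17 fragments in replicate 1 and 14 in replicate 2. The control level, the number of fragments expected from the input, sat at a genome-wide floor of 2.08 fragments for 79.3% of replicate 1 peaks and 1.22 for 80.9% of replicate 2 peaks. The lower floor gives replicate 2 higher folds at equal fragment numbers: over all shared regions the ratio of fold in replicate 2 to replicate 1 had a median of 1.39 (interquartile range 1.15 to 1.68), whereas the ratio of summit fragments had a median of 1.0 (0.824 to 1.2). Of 11 AM marker genes, 10 had a shared region nearest to their TSS, the exception being Fabp4, and so had 3 of 14 markers (21.4%) of other cells that a lavage can hold, next to 21.5% of all protein-coding genes. These 3 were Scgb1a1, with folds of 7.47 and 11.3 at its strongest region, S100a8 (13.6 and 30.7) and Pecam1 (10.7 and 16.7). The part of other cells in the peaks near the receptors was not tested.

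The sequences under the summits are printed here for 6 shared regions, because they hold the strongest region, the promoter regions of Hcar2 and Ffar4, both regions that were nearest to Hcar1, and the only region within 50 kb of Adora2b. Each runs 5′ to 3′ on the + strand of mm10 and covers 201 bases around the mean of both summits (196 bases at the Hcar2 promoter, where bases of the first exon were left out). Capitals mark strings searched on both strands, so that a string on the other strand appears as its reverse complement, and each string is described after the regions.

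Hcar2 region 33107 bp downstream of the start site, chr5:123832309-123832509: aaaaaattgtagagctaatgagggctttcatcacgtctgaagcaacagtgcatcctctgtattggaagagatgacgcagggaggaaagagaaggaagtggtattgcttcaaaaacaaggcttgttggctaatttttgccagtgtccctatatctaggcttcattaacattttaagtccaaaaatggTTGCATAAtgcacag

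Hcar2 promoter region, chr5:123865517-123865712: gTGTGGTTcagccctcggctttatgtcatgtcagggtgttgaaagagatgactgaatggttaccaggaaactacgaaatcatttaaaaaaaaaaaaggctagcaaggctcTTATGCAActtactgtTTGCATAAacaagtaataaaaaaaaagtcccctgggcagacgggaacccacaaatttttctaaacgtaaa

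Hcar1 region 6484 bp upstream, chr5:123886387-123886587: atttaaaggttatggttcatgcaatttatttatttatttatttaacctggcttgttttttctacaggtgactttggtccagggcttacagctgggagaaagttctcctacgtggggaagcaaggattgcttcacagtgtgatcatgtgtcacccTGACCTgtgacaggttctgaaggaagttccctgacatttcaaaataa

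Hcar1 region 11223 bp upstream, chr5:123891126-123891326: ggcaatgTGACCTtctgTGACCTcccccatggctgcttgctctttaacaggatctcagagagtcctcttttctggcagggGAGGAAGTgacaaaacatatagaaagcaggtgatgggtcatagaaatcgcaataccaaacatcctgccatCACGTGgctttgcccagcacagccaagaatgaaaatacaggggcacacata

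Ffar4 promoter region, chr19:38096860-38097060: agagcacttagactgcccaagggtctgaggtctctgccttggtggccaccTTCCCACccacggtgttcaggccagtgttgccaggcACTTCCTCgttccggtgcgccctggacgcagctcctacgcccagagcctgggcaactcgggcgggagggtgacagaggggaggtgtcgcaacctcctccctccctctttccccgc

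Adora2b region 24876 bp upstream, chr11:62224008-62224208: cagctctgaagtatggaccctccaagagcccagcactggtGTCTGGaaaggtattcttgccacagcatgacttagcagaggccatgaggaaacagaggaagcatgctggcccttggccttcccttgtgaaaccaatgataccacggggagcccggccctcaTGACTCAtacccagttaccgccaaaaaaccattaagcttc

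The Hcar genes lay within a dense group of SMAD4 regions. Hcar2 (chr5:123863570-123865516, - strand) and Hcar1 (chr5:123876739-123880003, - strand) are neighbours transcribed in the same direction with start sites 14487 bp apart, so their 50 kb windows overlapped and both took the same 8 shared regions, spread over 74256 bp. A total of 127 genes, 0.607% of protein-coding genes, had 8 or more shared regions by the same rule, with a median of 0 and a maximum of 18. Of the 8 regions, 4 were nearest to the TSS of Hcar2, 2 to that of Hcar1, and 2 to that of Denr, a gene coding for a translation reinitiation factor. The same regions are counted once in all totals.

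The strongest region lay downstream of Hcar2, at chr5:123831773-123833143, with summits 33107 bp beyond its TSS on average. Its fold enrichment was 49.4 in replicate 1, from 151 fragments at the summit (exact 95% Poisson interval 128 to 177), and 77.6 in replicate 2, from 171 fragments (146 to 199). The intervals cover counting error only. Per the paper's methods, reads marked as duplicates were filtered out before peaks were called. The peak was the third by fold in each list and the region ranked 3 of 10964 by the smaller fold of both replicates, and both summits lay within 2 bp of each other. The region was 1371 bp wide and intergenic, 10816 bp from the nearest gene body, that of Kntc1, a kinetochore gene, and 47594 bp from the TSS of Hcar1. Its window held a CEBP string, TTGCATAA, at chr5:123832495-123832502, 89 bp from the mean summit.

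**Figure D1:**
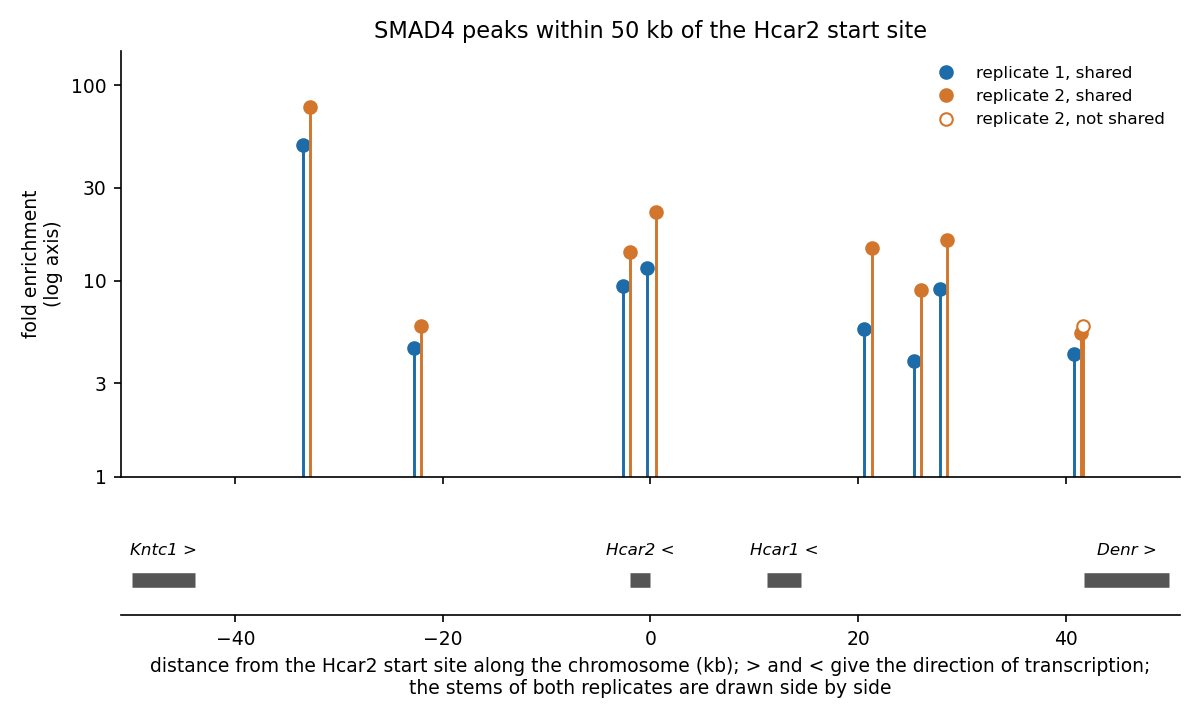
Fold enrichment (log axis) of every SMAD4 peak within 50 kb of the Hcar2 start site against its distance along the chromosome in kb, with filled points for peaks that overlap a peak of the other replicate, an open point for one that does not, and grey boxes for gene bodies. The downstream peak at 49.4-fold and 77.6-fold stands above the others, which lie between 3.90-fold and 22.6-fold.

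At the Hcar2 promoter, taken as 1 kb upstream to 100 bp downstream of a TSS, a region at chr5:123865350-123866007 had folds of 11.7 and 22.6, from 35 fragments (24.4 to 48.7) and 49 fragments (36.3 to 64.8). It ranked 1755, and the summits of the replicates were 89 bp apart, 52 bp and 141 bp upstream of the TSS. The window held 2 further CEBP strings, TTATGCAA at chr5:123865627-123865634 and TTGCATAA at chr5:123865643-123865650, which lay between the summits, and a RUNX string. Just past the 3′ end of the gene, 347 bp from it, a region at chr5:123862836-123863501 reached folds of 9.42 and 13.99, from 28 fragments (18.6 to 40.5) and 30 (20.2 to 42.8), with none of the searched strings in its window. The fourth region, 22460 bp downstream of the TSS at chr5:123842997-123843156, was narrow (160 bp) and weak, with folds of 4.55 and 5.87 from 13 and 12 fragments, and held a STAT5 string. Regions thus flanked the Hcar2 gene on both sides, and the fragment intervals of the promoter region and of the region at the 3′ end overlapped in each replicate.

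Upstream of Hcar1, 2 regions were nearest to its TSS and neither lay in its promoter. The region 6484 bp upstream (chr5:123886244-123886839) had folds of 5.67 and 14.7, from 18 fragments (10.7 to 28.4) and 34 (23.5 to 47.5). The region 11223 bp upstream (chr5:123891119-123891347) had folds of 3.90 and 9.02, from 11 fragments (5.49 to 19.7) and 19 (11.4 to 29.7). These were the 2 member regions where the replicates stood furthest apart, with ratios of fold of 2.58 and 2.31. The ratio of fragments was 1.89 at the first. The counting intervals overlapped, but they are of fragment numbers not scaled between the libraries. Relative to the genome-wide floor of each library, the first region stood at 8.65 in replicate 1 and 27.9 in replicate 2. Both windows held AGGTCA, the half-site of nuclear receptors such as RXR and PPARγ, read on the - strand, and the farther one held it at 2 places together with a PU.1 string 17 bp from the mean summit and an E-box.

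The remaining regions of the group lay on the Denr side. At chr5:123893442-123893822, 13712 bp upstream of Hcar1 and 13560 bp from the TSS of Denr, a region had folds of 9.10 and 16.2 from 27 and 35 fragments, and its window held an E-box. Over the Denr promoter, 610 bp from its TSS and 26662 bp upstream of Hcar1, a region of 12 and 11 fragments had folds of 4.22 and 5.41. A peak of replicate 2 next to it, 396 bp from the same TSS, had a fold of 5.87 from 12 fragments and no partner in replicate 1.

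Among the fatty acid receptors, both genes had SMAD4 at their promoters at low depth. At Gpr84 (chr15:103308235-103310438, - strand), a region at chr15:103310329-103310962 lay 167 bp upstream of the TSS with folds of 5.67 and 11.7, from 18 fragments (10.7 to 28.4) and 25 (16.2 to 36.9). Its summits were 117 bp apart, a wider gap than the median of 49 bp over all shared regions, and the window held AGGTCA. The other region of Gpr84 (folds 4.47 and 5.41, 14 and 11 fragments) lay 49727 bp downstream, only just inside the limit and 2308 bp from the TSS of Nfe2, the gene of an erythroid and megakaryocyte transcription factor. A peak of replicate 2 alone, 32210 bp upstream with a fold of 7.67 from 16 fragments, was nearest to Zfp385a.

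At Ffar4 (chr19:38097079-38114263, + strand), the promoter region at chr19:38096864-38097173 lay 119 bp upstream of the TSS, with folds of 4.87 and 8.12 from 14 and 17 fragments and summits 20 bp apart. A PU.1 string on the - strand lay 11 bp from the mean summit, beside an RBPJ string, and at 65.7% its window had the highest GC content of the member windows. The next region, 3496 bp upstream (chr19:38093371-38093776), had folds of 4.87 and 5.41 from 14 and 11 fragments and none of the strings. Downstream of the gene, 2 peaks of replicate 2 alone (folds 4.06 and 6.32, from 8 and 13 fragments) lay in introns of Pde6c, a phosphodiesterase of cone photoreceptors. The Ffar4 promoter region ranked 8446 and the Gpr84 one 6911 of 10964 by the smaller fold.

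Among the members, the nucleotide receptor P2ry2 and the nucleoside receptor Adora2b had fewer shared regions by the 50 kb rule than the fatty acid receptors. Adora2b (chr11:62248984-62266452, + strand) had 1, at chr11:62223844-62224269, 24876 bp upstream of its TSS and 1095 bp from the body of Specc1, with folds of 5.85 and 8.12 from 17 fragments in each replicate. Equal fragment numbers thus gave folds that differed through the control level, 2.08 against 1.22. Its window held an AP-1 string, TGACTCA, and the SMAD string GTCTGG, the only SMAD string found in a member window. P2ry2 (chr7:100996568-101012053, - strand) had 1 peak in replicate 1 and 4 in replicate 2, and none overlapped. The replicate 1 peak (fold 3.68, 11 fragments) lay 29979 bp downstream and was nearest to P2ry6, the gene of a UDP receptor. The replicate 2 peaks lay 47539 bp downstream at the P2ry6 promoter (fold 7.67, 16 fragments), 19874 bp downstream (7.67, 16), and 15223 bp and 21356 bp upstream (3.86 and 5.41, 10 and 11 fragments). The closest summits of both lists at P2ry2 were 10105 bp apart.

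Sucnr1 (chr3:60081869-60087566, + strand) had no peak in either list. The closest peak of replicate 1 lay 79413 bp away (fold 4.78, without a partner) and that of replicate 2 lay 325807 bp away, nearest to Mbnl1. A peak list holds only what passed the threshold of the peak caller, so signal at Sucnr1 under that threshold cannot be seen here.

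**Figure D2:**
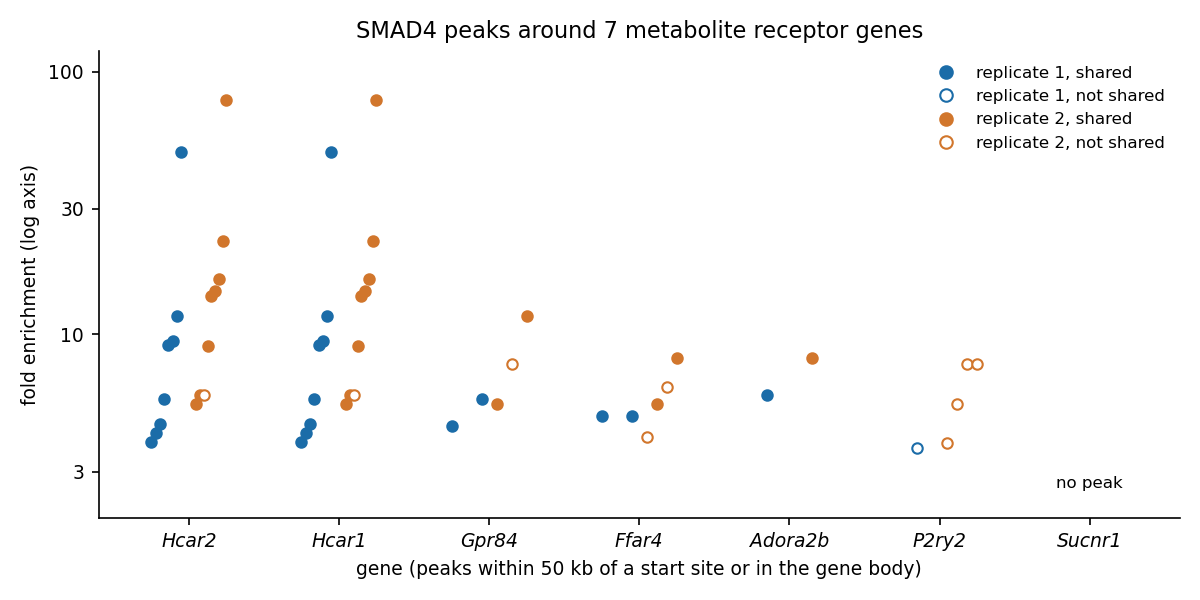
Fold enrichment (log axis) of each peak assigned to each receptor gene, by replicate, with filled points for peaks that overlap between replicates and open points for those that do not. Hcar1 and Hcar2 show the same peaks, all 5 peaks of P2ry2 are open, and Sucnr1 has none.

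Counted together, the receptors had 14 peaks in replicate 1 and 21 in replicate 2. Of these, 13 in each list had a partner in the other, against 69.4% of all replicate 1 peaks and 59.2% of all replicate 2 peaks. Of the 8 peaks of replicate 2 without a partner, all had folds between 3.86 and 7.67. Some shared regions had replicate 2 folds in that range too, such as 5.41 at the farther Ffar4 region and 5.87 at the region 22460 bp downstream of Hcar2. At least 1 shared region was found for 5 of the 7 genes (Hcar1, Hcar2, Gpr84, Ffar4 and Adora2b), against 39.1% of all protein-coding genes. The same 5 had one nearest to their own TSS, against 21.5% of genes, and 3 (Hcar2, Gpr84 and Ffar4) had one in their promoter, against 2.91%. Since Hcar1 and Hcar2 share a locus, and the genes were chosen with these lists known, these shares describe the 7 genes and no more.

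**Figure D3:**
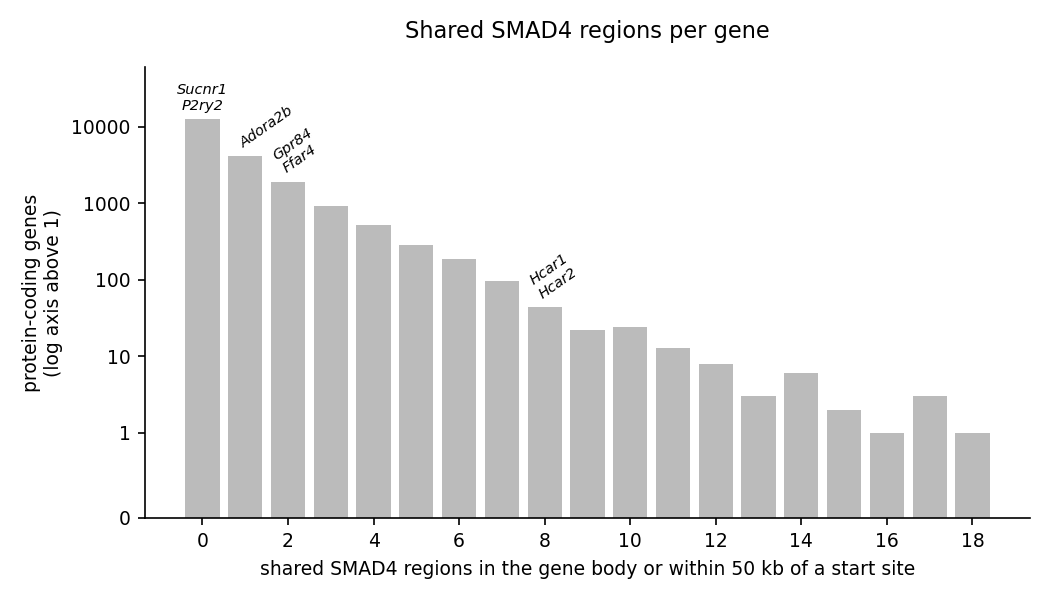
Number of protein-coding genes (y axis, log above 1) by the number of shared SMAD4 regions in the gene body or within 50 kb of a start site (x axis), with the receptor genes written above their bars. Hcar1 and Hcar2 have 8, Gpr84 and Ffar4 2, Adora2b 1, and P2ry2 and Sucnr1 fall with the 12737 genes that have 0.

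By position, 4 of the 13 regions lay in a promoter (1 of them that of Denr), 1 at a transcription end and 8 between genes, with 0 in exons and 0 in introns. Over all shared regions 6.42% lay in promoters, 1.3% at transcription ends, 2.49% in exons, 49.3% in introns and 40.5% between genes. The gene bodies of the members are short, from 1947 bp at Hcar2 to 17469 bp at Adora2b. Of the 13 regions, 10 were nearest to a receptor TSS, and 3 were nearest to another gene (Denr at 2, Nfe2 at 1).

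Apart from the region downstream of Hcar2, the member regions were of ordinary strength. The smaller fold had a median of 5.67 (interquartile range 4.55 to 9.1) over the 13 regions and 6.5 (5.07 to 9.63) over all 10964. Their median width was 406 bp against 440 bp, and the summits of both replicates were 41 bp apart against 49 bp. The fold was higher in replicate 2 in 13 of 13 regions. Fragments at the summit did not follow that order everywhere, since they were fewer in replicate 2 at 4 of the weakest regions, with 12 against 13 fragments 22460 bp downstream of Hcar2 and 11 against 14 at the farther Ffar4 region.

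**Figure D4:**
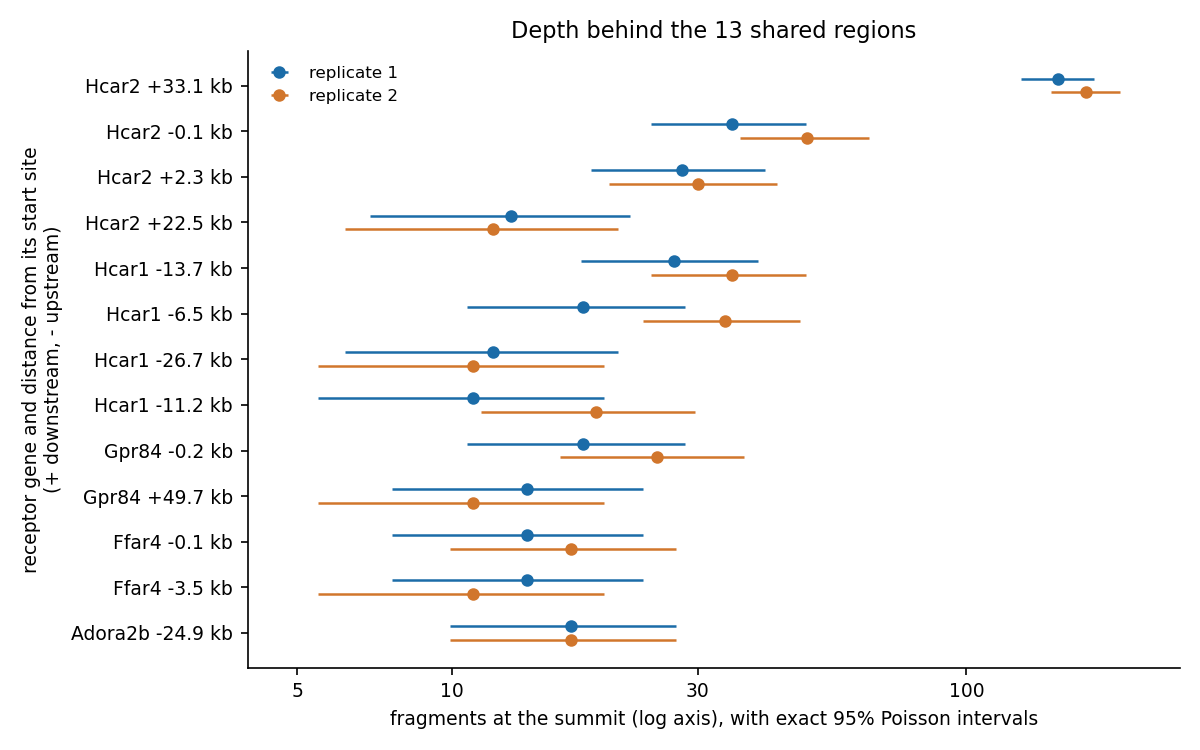
Fragments at the summit (log axis) of the 13 shared regions in replicate 1 and replicate 2, with exact 95% Poisson intervals that cover counting error only, labelled by receptor gene and distance from its start site. The replicates' intervals overlap in every region, and only the region 33107 bp downstream of Hcar2 rises above 100 fragments. Fragment numbers are not scaled to the control floor of each library, so the overlap does not show equal enrichment in both replicates.

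**Figure D5:**
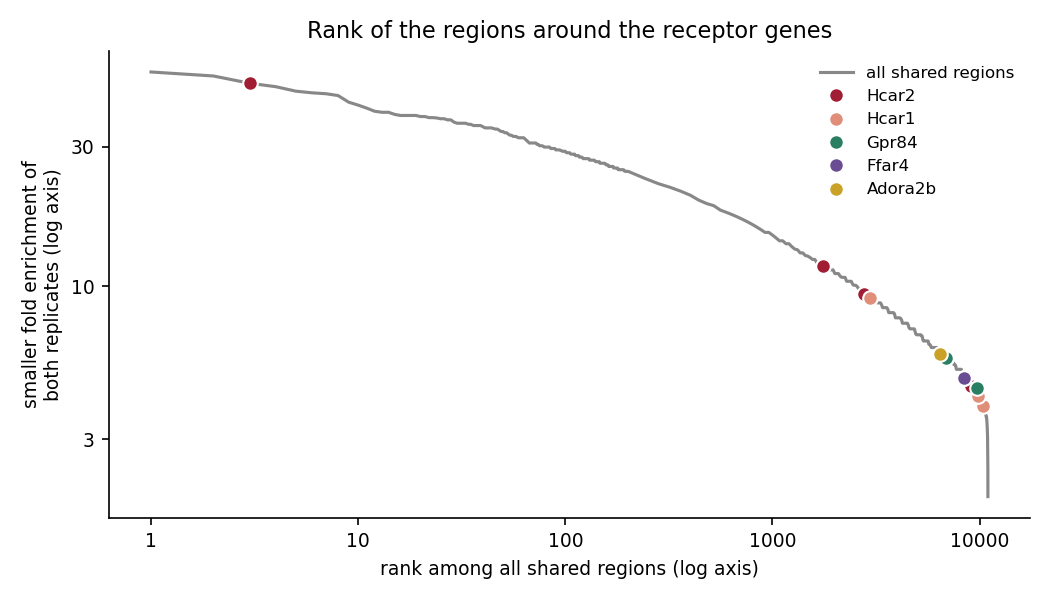
Smaller fold enrichment of both replicates (log axis) against rank (log axis) for all 10964 shared regions (grey line), with the regions of the receptor genes as points; 2 Ffar4 regions share a value and 1 point covers both. The region downstream of Hcar2 ranks 3, the next, at the Hcar2 promoter, ranks 1755.

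The window of 100 bp on each side of the mean summit was searched for 11 strings. The CEBP string, in which TT is followed by A or G, C or T, A or G, C or T and then AA, was held by 2 of 13 member windows, both of Hcar2, against 23.6% of all shared regions and 4.78% of windows of equal length 1 kb away. GAGGAAGT, the PU.1 string, was held by 2 (all regions 8.0%, flanks 1.47%), and AGGTCA by 3 (15.4% and 11.9%). The RUNX string, TGTGGT followed by C or T, was held by 2 (all regions 16.3%, flanks 8.04%), and so was the E-box CACGTG (3.65% and 2.77%). The AP-1 string, TGA and TCA around C or G, was held by 1 (8.91% and 3.73%). The STAT5 string, TTC and GAA around C or T, any base, and A or G, was also held by 1 (4.27% and 3.11%). The SMAD string GTCTGG (11.2% and 10.3%) and the RBPJ string GTGGGAA (4.14% and 3.87%) were held by 1 each. CAGGAAGT, an ELF5-type string (5.62% and 1.61%), and the palindrome GTCTAGAC (0.465% and 0.128%) were held by 0. None of the 11 was found in 3 windows (23.1%, against 31.9% of all regions). A match is a string of letters and not a bound site, and with 13 windows 1 match moves a share by 7.69 percentage points. None of the 13 windows lay mostly in soft-masked repeat sequence (4.13% of all regions did), and their median GC content was 43.3% (range 37.3% to 65.7%) against 43.8%.

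Moving the limit of 50 kb would change what some genes hold. Just outside it, Gpr84 had a shared region at the Nfe2 promoter, 52116 bp and 52083 bp from its TSS in replicate 1 and replicate 2, with folds of 17.2 and 30.2, stronger than either region inside. Adora2b had unmatched peaks at 64015 bp and 63784 bp (4.22 and 6.77), and Ffar4 a shared region at Myof at 71539 bp and 71517 bp (4.87 and 6.77). Only 1 of the 2 shared regions nearest to the Adora2b TSS at any distance lay within the limit. For P2ry2 the first peaks outside lay at 111737 bp and 111705 bp, at Fchsd2 (6.50 and 6.66). For Hcar1 they lay at 50617 bp in replicate 2 (4.51, near Ccdc62) and 166096 bp in replicate 1.

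Other genes of the same pathway were taken from lists of related receptors, of enzymes and transporters that supply or remove the ligands, and of G protein signalling. Of 20 other metabolite and nucleotide receptors, 9 (45.0%) had a shared region nearest to their TSS and 12 (60.0%) had one by the 50 kb rule, next to 21.5% and 39.1% of all protein-coding genes. Among the highest were those of Gpr65, a proton-sensing receptor (25.7 and 42.4, 106807 bp from its TSS), P2ry13, an ADP receptor (20.8 and 21.2), and P2ry12, also an ADP receptor (9.75 and 9.93). Some of these 20 receptors, such as P2ry12 and P2ry13, are neighbours, so the same region can count for several of them by the 50 kb rule. The 45.0% and 60.0% are therefore not shares of separate loci. Of 12 genes of ligand supply, 9 (75%) had a region by the 50 kb rule and 3 (25%), close to the 21.5% of all genes, had one nearest to them: Entpd1, which breaks down extracellular ATP (11.05 and 18.5), Nt5e, which makes adenosine from AMP (4.87 and 5.87), and Ldha, which makes lactate (6.17 and 4.56). Of 13 G protein signalling genes, 11 (84.6%) had one by the 50 kb rule and 8 (61.5%) had one nearest to them, against 39.1% and 21.5% of all genes. Those 8 were led by Gnaq, a G protein α subunit (18.8 and 29.8), Pde4b, a phosphodiesterase that degrades cyclic AMP (17.5 and 30.2), Rgs2, a regulator of G protein signalling (15.6 and 21.2), and Arrb1, an arrestin (5.52 and 12.6).

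The genes whose strongest nearest region was most like that of Hcar2 were found by Euclidean distance in log2 fold enrichment over both libraries, among 4481 genes on other chromosomes or over 1 Mb away. Closest was Cd33, a sialic acid receptor of myeloid cells (distance 0.155, folds 48.1 and 69.9). Next were Nt5c2, a cytosolic nucleotidase (0.258, 44.8 and 66.8, in an intron), and Chil3, a chitinase-like protein of AMs (0.269, 45.8 and 65.4, 5173 bp upstream). The likeness rests on 2 values per gene that share their libraries.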

How the data were processed

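Per the labels, AMs were isolated by lavage and sorting and HT-ChIPmentation libraries were made for SMAD4 and for input. The submitters' processing notes name CASAVA, bcl2fastq, cutadapt, Bowtie2, SAMtools and MACS3 and the build mm10. Each deposited list holds, per peak, a score, the fold enrichment over the control, and the −log10 p-value and −log10 q-value that the authors obtained from MACS3 at a q-value limit of 0.05. Inputs have no list of their own and enter only through the control level. The lists hold no library totals, so sequencing depth was not compared beyond the fragments at each summit and the control floor of each library. The paper also provides sequencing quality data, which were not used here.

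Summit fragments and control levels were solved from fold and p-value (largest mismatch of a whole fragment number 0.00054 log10 units) with Python 3.11.15, numpy 2.4.6, pandas 2.3.3 and scipy 1.17.1, after the scripts were tested on simulated peaks. Peaks of both lists overlapping by 1 bp were merged. TSSs came from 45657 curated RefSeq transcripts of 26089 genes, and sequences from the RefSeq mm10 genome (GRCm38) with pysam 0.24.0. No test was run, since there is 1 condition. The genes named are the 7 receptors, every gene whose TSS was nearer to one of their peaks, at most the 4 strongest of each pathway list (1 of them is not reported here) and the 3 genes most like Hcar2. Marker genes called, or singled out as the exception, the nearest gene bodies and the genes at the first peaks outside 50 kb are also named, chosen after their values were seen. Members, lists and strings were chosen with earlier results of these data known. Alternative distances, thresholds, overlaps, windows and rankings were computed, as were both lists alone.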

Additional observations from a re-analysis of the deposited data

How the results depend on the processing

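Of 53 values computed under another setting, 43 stayed within 1.5 times the reported one. The number of receptor genes with a shared region was 4 or 5, and the number with a peak in a single list was 6. With a limit of 10 kb the 13 shared regions fell to 6 and the peaks to 6 in each replicate, and Adora2b had no region left. Requiring a fold of at least 5 left 7 shared regions, 6 of them nearest to a receptor TSS, and 7 replicate 1 peaks, and Ffar4 had no region left. Keeping peaks nearest to a receptor TSS alone left 13 of the replicate 2 peaks. Leaving out a replicate gave 14 to 21 regions, the 21 being the replicate 2 list alone, without replicate 1. P2ry2 has peaks in each list alone. Gpr84 had no region left when summits had to lie within 100 bp, and Ffar4 none under a reciprocal overlap of 50%. With a window of 50 bp on each side, 1 region held a CEBP string in place of 2. Ranked by the smaller ratio of fragments to the genome-wide control floor of each library, the region downstream of Hcar2 was 9 instead of 3. The shorter distance, the higher fold and the stricter overlaps admit fewer peaks or pairs by construction, and a single list needs no partner. The narrower window also leaves out, by construction, the CEBP string 89 bp from the mean summit downstream of Hcar2. The cause of the change with the ranking was not tested. With 9 of the 13 regions at 11 to 18 fragments in replicate 1, the lists cannot show whether an unshared peak is absent from the other library or under its threshold.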
